A study of Caenorhabditis elegans with 2 samples.

Results

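The histone genes of Caenorhabditis elegans were described here as places where the tagged zinc finger protein ZTF-25 was or was not found by ChIP-seq. They were taken as the protein-coding genes whose symbol is his- followed by a number, which gave 72 of the 19973 protein-coding genes on the nuclear chromosomes. Both libraries came from whole young adults of strain RW12287 at 63 hours, in which CRISPR had inserted TY1, EGFP and 3xFLAG tags into ztf-25 itself. The chromatin was sonicated to 200 to 800 bp and precipitated with an antibody against GFP, and the animals had been synchronised by starving larvae hatched from bleached parents. The 2 samples are biological replicates of 1 group, so no condition was compared with another, and no sample without the tag was analysed here. A whole-animal preparation mixes all tissues, so a site used in a few cells cannot be told apart from one used weakly in many.

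Histones are the proteins around which DNA is wrapped. H2A, H2B, H3 and H4 form the nucleosome core, and the linker histone H1 sits where DNA enters and leaves it. The genes for the core histones are copied many times over in animal genomes, are read mainly when DNA is replicated, and their mRNAs generally end in a short stem-loop instead of a poly(A) tail. The replacement histone H3.3 is made outside replication from ordinary polyadenylated mRNAs. In C. elegans many core histone genes lie back to back, so that the space between the 5′ ends of 2 neighbours serves both.

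The 72 genes comprised 17 for H2A, 16 for H2B, 15 for H3, 16 for H4, 5 for H3.3, 1 for the linker histone H1 (his-24) and 2 short genes annotated only by a histone domain (his-39 and his-73). All 15 H3 genes encode 1 protein and all 16 H4 genes encode 1 protein, while the H2A genes encode 3 proteins and the H2B genes 4. At the DNA level the 72 genes hold 50 distinct coding sequences, and 36 genes share theirs with at least 1 other member. Genes within 10 kb of each other were joined into 14 clusters, which hold 67 of the genes. The 5 outside a cluster are his-71, his-72 and his-74 for H3.3, his-24, and his-73. Of the 72 genes, 27 lie on chromosome V, 22 on IV, 14 on II, 4 on X, 3 on III and 2 on I.

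Back-to-back genes, with 5′ ends at most 1000 bp apart, made 31 pairs from 62 of the 72 genes. H2A stood opposite H2B in 16 pairs, with a median of 292 bp between the 5′ ends, and H3 opposite H4 in 14 pairs, with a median of 255 bp. The remaining pair, his-67 and his-68, sets an H4 gene against an H2A gene across 368 bp. In 64 of the 72 genes the annotated gene is no longer than its coding sequence with the stop codon, so most of these 5′ and 3′ ends are the ends of the coding sequence and not of the transcript.

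The sequences between the 5′ ends are shown for 3 H3/H4 pairs and for the upstream side of his-37, an H4 gene with no divergent partner. Of the peak summits in the thresholded lists described further on, none lies in the pair sequences, while the his-37 stretch holds one. The his-2/his-1 sequence holds a summit of the ranked list alone. None of the his-50/his-49 sequence is unique in the genome, and no peak was listed there. The printed sequences are from the plus strand of WBcel235 (the same assembly as ce11), read from the RefSeq genome. Capitals mark the words GGGACAC and TATAAA on either strand. The his-60/his-59 sequence is chrIV:7487993-7488248, that of his-2/his-1 is chrV:16042284-16042519, that of his-50/his-49 is chrV:8847705-8847942 and the his-37 stretch is chrV:9546955-9547104.
his-60/his-59: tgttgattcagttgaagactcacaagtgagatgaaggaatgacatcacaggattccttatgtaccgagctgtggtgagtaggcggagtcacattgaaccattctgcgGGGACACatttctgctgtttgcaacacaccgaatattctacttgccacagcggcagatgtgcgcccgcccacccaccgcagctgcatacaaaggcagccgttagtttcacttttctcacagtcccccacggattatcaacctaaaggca
his-2/his-1: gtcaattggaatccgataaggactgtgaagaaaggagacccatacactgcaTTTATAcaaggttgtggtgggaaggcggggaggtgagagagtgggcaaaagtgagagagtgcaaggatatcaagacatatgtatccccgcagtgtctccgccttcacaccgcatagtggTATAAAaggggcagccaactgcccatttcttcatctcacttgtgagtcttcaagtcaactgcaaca
his-50/his-49: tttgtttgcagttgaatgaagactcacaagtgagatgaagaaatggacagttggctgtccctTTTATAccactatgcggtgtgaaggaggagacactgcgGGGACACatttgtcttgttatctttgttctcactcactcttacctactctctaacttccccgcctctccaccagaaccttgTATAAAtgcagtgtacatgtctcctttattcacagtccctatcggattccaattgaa
his-37 upstream: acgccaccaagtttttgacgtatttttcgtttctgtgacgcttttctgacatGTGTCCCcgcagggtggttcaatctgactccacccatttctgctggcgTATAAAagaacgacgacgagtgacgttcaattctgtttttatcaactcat

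GGGACAC or its reverse complement GTGTCCC occurred between the 5′ ends of 24 of the 31 pairs (77.4%), against 1.36% of all protein-coding genes in the 258 bp upstream of their 5′ ends. CACCGCA or TGCGGTG occurred in 23 of the 31 pairs (74.2%), against 1.44% of the upstream regions. TATAAA, the TATA box word, or its reverse complement occurred in 24 pairs (77.4%), against 35.9%. The 31 stretches hold 26 distinct sequences, so pairs that are copies of each other count more than once. Of the 26, GGGACAC or its reverse complement was in 19, CACCGCA or its reverse complement in 20, and TATAAA or its reverse complement in 20. The words were picked after the histone sequences had been seen, and a match is a run of letters and not a shown binding site. GGGACAC and CACCGCA were taken because they are among the commonest 7-base words in these same stretches. Their high shares there follow from that choice and are not a separate result. The his-50/his-49 sequence is 1 of 2 identical stretches in the genome's histone pairs.

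A peak's summit is the base at which the authors' peak caller placed its highest point. A gene was counted when a summit lay between 1000 bp upstream and 500 bp downstream of its 5′ end. In the conservative list, the stricter of the 2 thresholded lists derived from both libraries, 6 of the 72 histone genes had a summit (8.33%), against 2.81% of all protein-coding genes. In the combined list, the longer of them with 1368 peaks, 13 did (18.1%), against 3.62%. In the list of replicate 1 alone 4 did (5.56%, against 1.39%), and in that of replicate 2 alone 2 did (2.78%, against 0.856%). Counting a summit in any of the 4 thresholded lists gave the same 13 genes (18.1%, against 3.95%). Partners of a divergent pair have overlapping windows and can hold the same summit, so they are not independent, and the 6 and 13 genes rest on 4 and 10 distinct summits. The counts depend on the window: from 500 bp upstream to 100 bp downstream 1 of the 72 had a conservative summit (1.39%), against 1.68% of all protein-coding genes, and 3 had a combined one (4.17%), against 2.08%. Giving each conservative summit only to the nearest gene left 3 histone genes, and the share of all protein-coding genes under that rule was not counted.

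Of the histone types, H4 had the most genes with a combined-list summit, 6 of 16, followed by 3 of 15 for H3, 2 of 17 for H2A and 2 of 16 for H2B. Over all protein-coding genes the share was 3.62%. A summit counts for the gene whose window holds it, which need not be the gene it lies nearest. The summits counted for the H4 genes his-46 and his-56 lay past the 3′ ends of their H3 partners. Those counted for the H3 genes his-59 and his-2 lay inside their H4 partners. None of the 5 H3.3 genes, the H1 gene or the 2 histone-domain genes had one in any of the 4 thresholded lists. The conservative list held a summit at 2 H2A, 2 H2B and 2 H4 genes and at none of the H3 genes, against 2.81% of all protein-coding genes. With copies of 1 to 17 genes a type and shared summits, these counts are a description of the types and were not compared by a test.

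The 2 histone genes with the highest signal were his-66 (H2B) and his-65 (H2A), a divergent pair on chromosome IV. Signal is the authors' own value for a peak, on a scale that is not stated, and is compared only within 1 list. Their shared peak, chrIV:11400163-11400438, had a signal of 109.5 with both libraries together, 63.7 in replicate 1 and 47.4 in replicate 2. It was the only histone peak whose summit was in all 4 thresholded lists. Among the 1092 conservative peaks it ranked 341 by signal, at an irreproducible discovery rate (IDR, the expected share of peaks as high in rank that fail to repeat) of 0.00101. The summit did not lie between the genes: it was 114 bp past the 3′ end of his-66. A second combined-list summit at this pair, chrIV:11401466-11401741, was 129 bp past the 3′ end of his-65, with a signal of 76.5 from both libraries, 49.997 in replicate 1 and 28.4 in replicate 2.

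The same placement recurred at other pairs of the chromosome IV clusters. The conservative peak chrIV:11323623-11323898, with a signal of 84.4 from both libraries, 44.6 in replicate 1 and 37.6 in replicate 2, had its summit 295 bp past the 3′ end of his-47 (H2A). It lay 678 bp from the 5′ end of his-47 and so counted only for the partner gene, his-48 (H2B), from the far side. Its neighbour edg-1 also lies within 1000 bp. At his-46 (H4) and his-45 (H3), the combined peak chrIV:11326995-11327270 had a signal of 73.1, with 43.3 in replicate 1 and 25.1 in replicate 2, and its summit was 135 bp past the 3′ end of his-45. At his-55 (H3) and his-56 (H4), chrIV:11337598-11337873 had a signal of 75.8, with 49.6 in replicate 1 and 30.0 in replicate 2, and its summit was 117 bp past the 3′ end of his-55. These last 2 summits also fall in the promoter windows of the non-histone genes B0035.21 and F54E12.2, and which gene such a peak belongs to was not tested.

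Other summits lay inside genes. In the coding sequence of his-60 (H4, paired with his-59 for H3) the peak chrIV:7487723-7487998 had a signal of 77.4. It had 73.3 in replicate 1, whose thresholded list it entered, and 22.7 in replicate 2, whose list it did not enter. In his-1 (H4, paired with his-2 for H3) the peak chrV:16042640-16042915 had a signal of 67.1 from both libraries and 46.8 in replicate 1, and no ranked peak of replicate 2 overlapped it. Both were in the combined list and not in the conservative one.

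The H4 gene his-37 was the only one with a thresholded summit just upstream of its 5′ end. The conservative peak chrV:9546870-9547145 had a signal of 84.4 from both libraries, 48.6 in replicate 1 and 44.6 in replicate 2. Its summit lay 97 bp upstream of his-37, with C50F4.6 and nstp-10 within 1000 bp, and 2 bp from the centre of the GTGTCCC printed in capitals above. Of the 10 combined-list peaks at histone genes this was the 1 that held that word. The H3 gene his-42 had a combined-list peak, chrII:13829179-13829454, with a signal of 35.0 and 34.8 in replicate 2, but its summit lay 620 bp upstream and on the small nuclear RNA gene C47F8.9, and no ranked peak of replicate 1 overlapped it. It was the only 1 of the 10 with a small noncoding RNA gene within 200 bp.

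The remaining conservative peak lay inside his-67, the H4 gene of the chromosome I pair, at a signal of 91.2 from both libraries together. Its replicate 2 signal was 42.5, and no ranked peak of replicate 1 overlapped it, although another peak in the window reached 33.2 in that library. Its summit was 164 bp into the gene from the 5′ end.

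**Figure D1:**
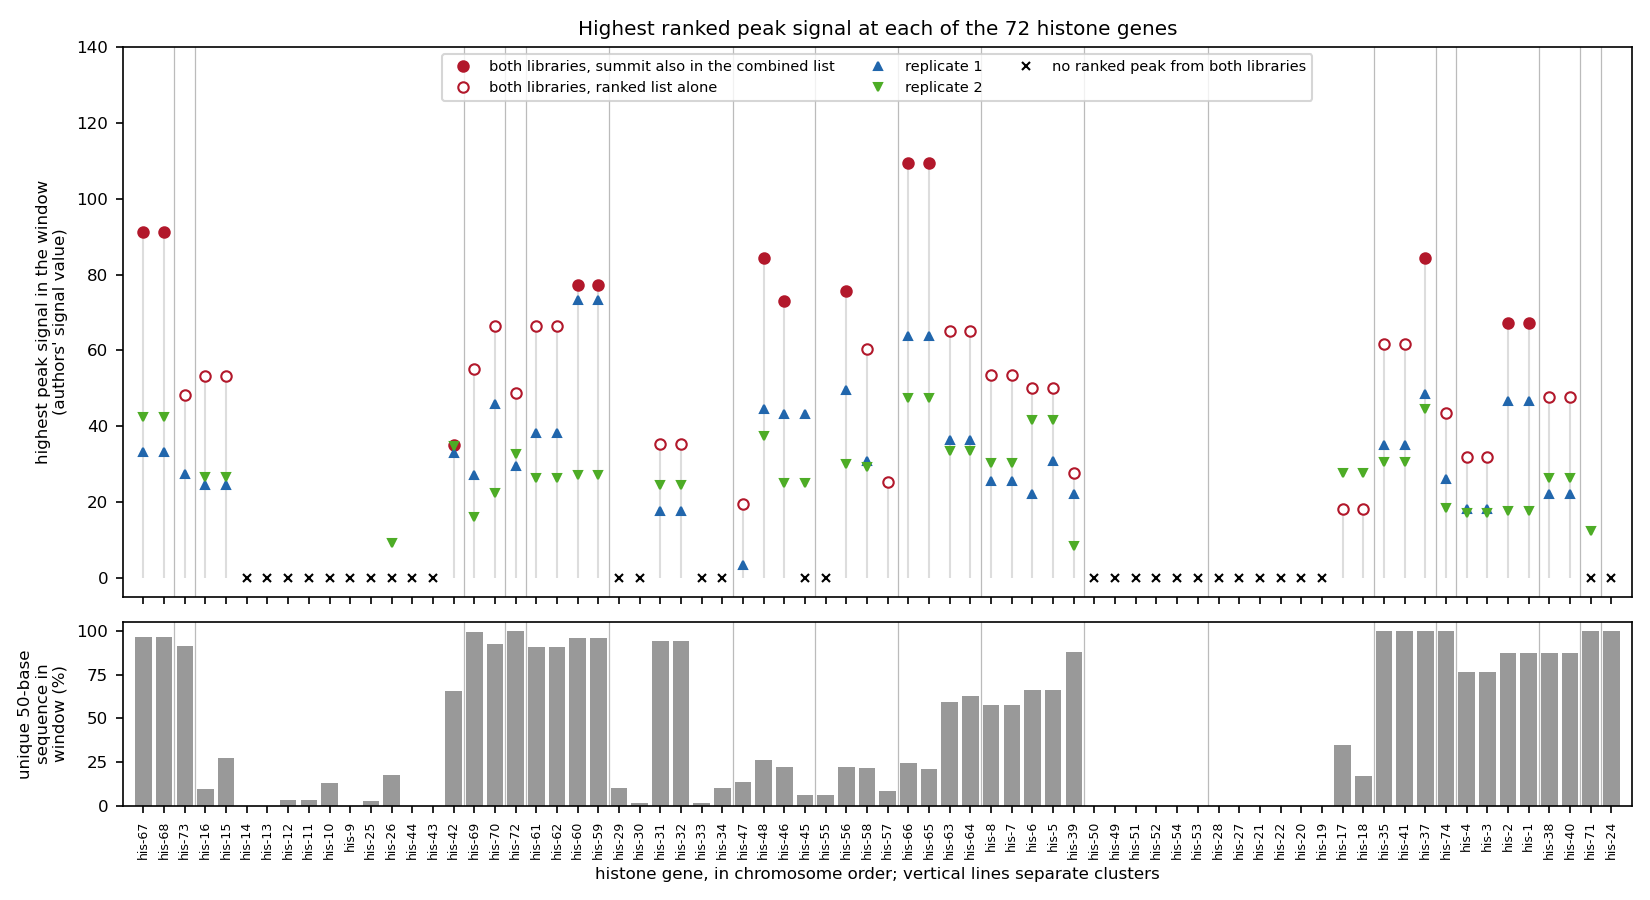
Highest peak signal in the window of each histone gene (top, authors' signal value), from both libraries together (circles, filled where the gene also has a combined-list summit) and from replicates 1 and 2 (triangles), with crosses for the 30 genes without a ranked peak, and the share of unique 50-base sequence in the same window (bottom, percent). his-66 and his-65 stand highest at 109.5, and the crosses fall mostly where the lower bars are short.

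Between the 5′ ends of the 31 divergent pairs, where the shared promoters lie, none of the 4 thresholded lists had a summit, although 7 pairs had a combined-list summit somewhere in their windows. The ranked list, which holds 104189 peaks before any threshold, had a summit there in 7 pairs. The windows of the 72 genes together cover 68627 bp, of which the stretches between 5′ ends make up 12.2%, the genes 41.9%, the 300 bp past 3′ ends 28% and the rest 17.9%. Of the 10 combined-list summits, 0 lay between 5′ ends, 3 inside a histone gene, 5 past a 3′ end and 2 elsewhere. Of the 65 ranked summits, 7 (10.8%), 29 (44.6%), 20 (30.8%) and 9 (13.8%) lay in the same places in that order. Counted only over the unique sequence, by the measure explained further on, the 4 places make up 9.2%, 32.7%, 28.5% and 29.6% of the length. In 17 of the 31 pairs none of the sequence between the 5′ ends is unique. The 10 summits are few, and no test was made of their places.

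**Figure D2:**
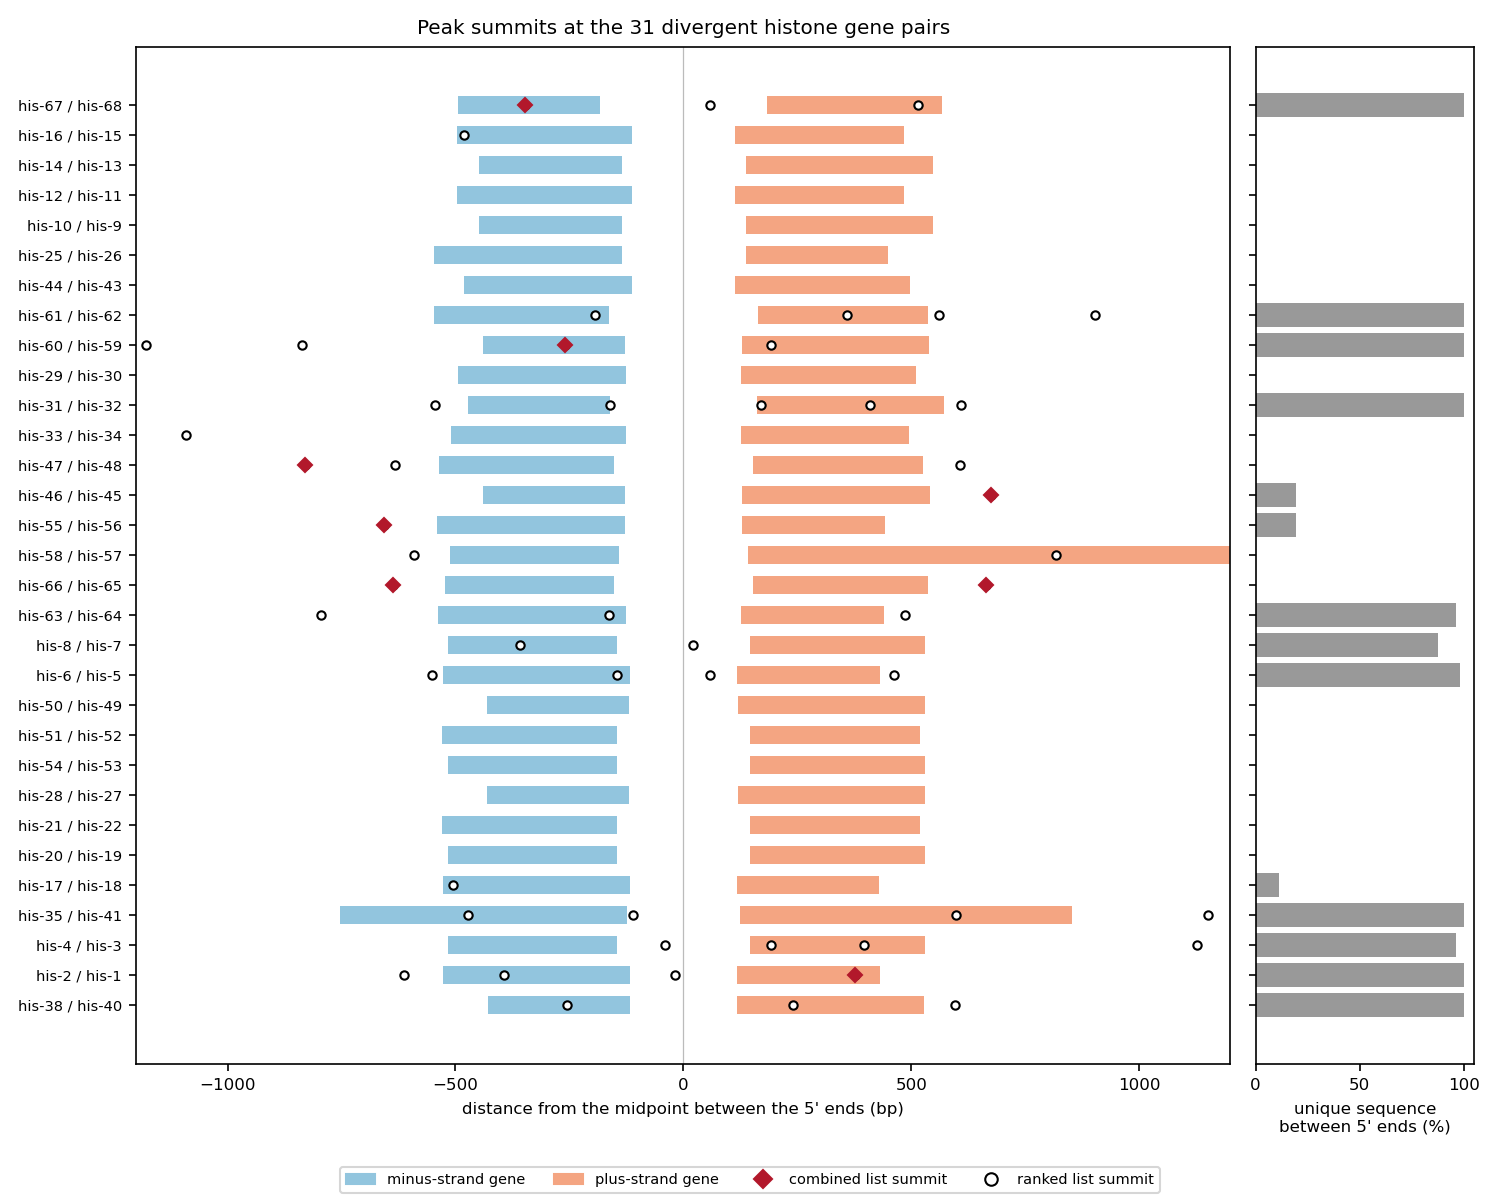
The 31 divergent pairs aligned on the midpoint between the 5′ ends (left, distance in bp), with boxes for the genes, diamonds for combined-list summits and circles for ranked-list summits, and the share of unique sequence between the 5′ ends of each pair (right, percent). No diamond lies in the space between the boxes.

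**Figure D3:**
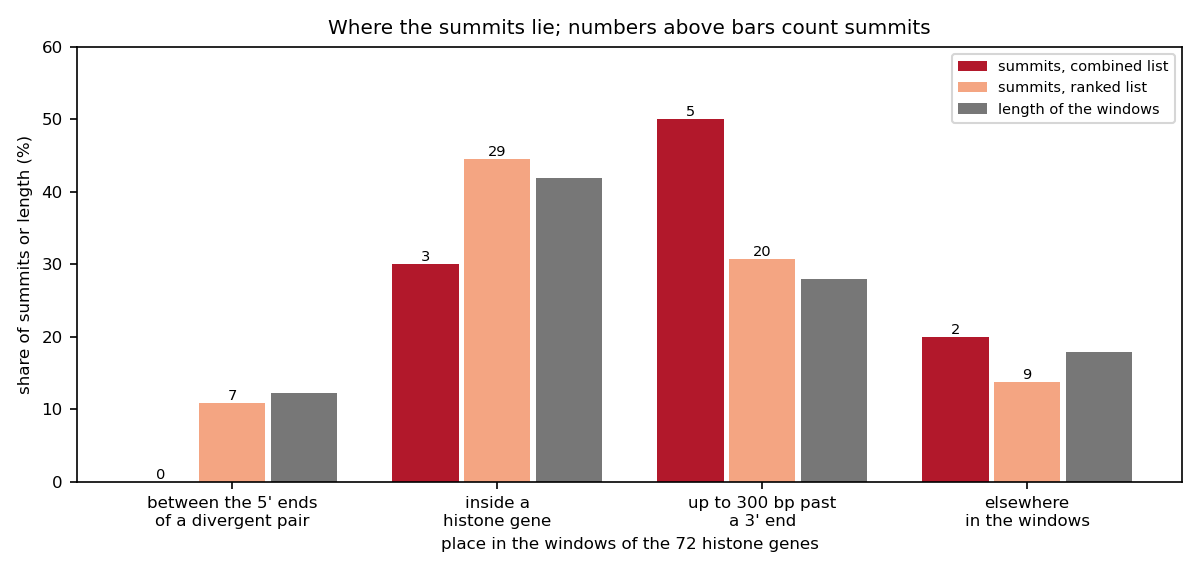
Share of the combined-list summits, of the ranked-list summits and of the window length (percent) in 4 places at the histone genes, with the number of summits above each bar. The combined list has 0 summits between 5′ ends and 5 past a 3′ end.

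Past the 3′ end lies the stem-loop of replication-dependent histone mRNAs. An inverted repeat with arms of 6 bases and a loop of 4 was searched for in the 150 bp after each annotated gene end. A gene was counted where the first arm was GGCCCT, that of the commonest such repeat at these same genes. By this count 56 of the 72 genes had one, at a median of 43 bp. In 64 genes the annotated gene is as long as its coding sequence with the stop codon. The other 8 have longer spans: his-24, his-35, his-37, his-41, his-57, his-71, his-72 and his-74. There the search need not have begun at the stop codon, and none of these 8 was counted. It was found in 15 of 15 H3, 15 of 16 H4, 15 of 16 H2B and 11 of 17 H2A genes. This search found it at none of the 5 H3.3 genes, his-24, his-39 or his-73. A repeat before an annotated gene end was not looked for, so these counts do not show that the 8 genes with longer spans lack one. The 30 bases at 3 genes are shown because these ends lie near the summits, or, for his-52, in a cluster without any peak. They are printed on the strand of the gene, with the repeat and its loop in capitals.
his-45: acccaacGGCCCTCTTTAGGGCCacaaata
his-66: acccaacGGCCCTCTTTAGGGCCacaaatc
his-52: acccaacGGCCCTCTTAAGGGCCacaaatg
The first is chrIV:11327046-11327075, the second chrIV:11400357-11400386 on the minus strand and the third chrV:8850865-8850894. The form of his-45 and his-66 was shared by 52 genes, and the form with another loop by 4. Of the 56 genes with the repeat 11 had a combined-list summit in the promoter window (19.6%), and of the 16 without it 2 did (12.5%), his-37 and his-68, against 3.62% of all protein-coding genes. The 16 are the genes where this search found no repeat, and they include the 8 with longer spans, his-37 among them. The shares with and without the repeat were not compared by a test. The repeat lies past a gene's 3′ end and the promoter window at its 5′ end, so these shares do not measure summits near a repeat. his-48 has the repeat and is counted through a summit past the 3′ end of his-47, which has none. his-45 and his-55 have the repeat and a summit past their 3′ ends, and are not counted.

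The ranked list scores the weaker sites. A ranked peak had its summit in the window of 42 of the 72 histone genes (58.3%), against 82.8% of all protein-coding genes. Replicate 1's ranked list reached 40 (55.6%, against 64.4%) and replicate 2's 42 (58.3%, against 63%). Among the genes with a peak the highest signal had a median of 54.4 at the histone genes (quartiles 44.6 and 67.1), against 36.4 over all protein-coding genes. The order was the same in each library, with 33.1 against 24.5 in replicate 1 and 27.1 against 20.5 in replicate 2. The share of histone genes with a ranked peak was thus below that of all protein-coding genes and the median signal of those with one above it, and neither difference was tested. Partners of a divergent pair can enter the histone medians with the same peak, so the values are not all separate peaks. With absent peaks set to 0 the histone median was 31.8. No such median was taken over all protein-coding genes, so 31.8 has no counterpart here and is not to be set against 36.4.

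Much of the histone sequence is present more than once in the genome, which bears on where a read can be placed. For each position of a window it was asked whether the 50 bases around it occur once in the nuclear genome. A histone window was unique over a median of 23.3% of its length, against 100% for all protein-coding genes. Below 50% unique, 12 of 40 histone genes had a ranked peak (30%), against 32% of 437 protein-coding genes. From 50% to under 90% all 14 histone genes did, against 81.5%, and from 90% 16 of 18 did (88.9%), against 84.1%. Of the 30 histone genes without a ranked peak, 28 were in the lowest class. Neither the read length nor the handling of reads that match several places is stated in the labels or files, so the part of copy number in the missing peaks was not tested.

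**Figure D4:**
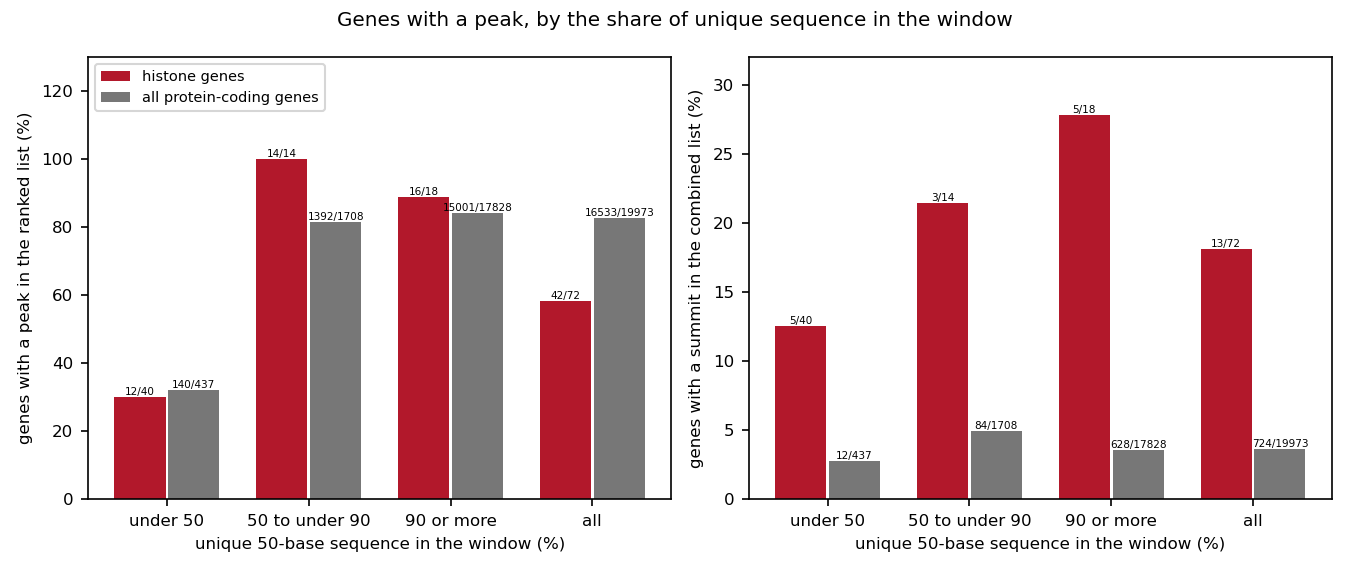
Share of histone genes (red) and of all protein-coding genes (grey) with a ranked peak (left, percent) and with a combined-list summit (right, percent), by the share of unique 50-base sequence in the window. Counts stand above the bars, and below 50% unique 12 of 40 histone genes and 140 of 437 protein-coding genes have a ranked peak.

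Combined-list summits were present in each uniqueness class. They were at 5 of 40 histone genes (12.5%), against 2.75% of all protein-coding genes, below 50% unique. They were at 3 of 14 (21.4%, against 4.92%) in the middle class and at 5 of 18 (27.8%, against 3.52%) in the highest. The classes are those of the windows: the combined-list peaks of the 5 genes below 50% unique were themselves 58.7% to 100% unique. Between the 5′ ends of the divergent pairs the ranked summits were as follows. In 11 pairs the stretch there was at least 80% unique, and 7 of these had a ranked summit in it. In the other 20 pairs, 17 of them with 0% unique sequence there, 0 did. Elsewhere in their windows, 7 of these 20 pairs had a ranked summit and 4 a combined one.

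The genes without a ranked peak were gathered in a few clusters. On chromosome V, the cluster from his-50 to his-53 had 0% unique sequence and no ranked peak at any of its 6 genes, which are his-50, his-49, his-51, his-52, his-54 and his-53. The neighbouring cluster from his-28 to his-18 had none at his-28, his-27, his-21, his-22, his-20 and his-19, while his-17 and his-18, the part of it with some unique sequence, shared a peak with a signal of 18.3 that replicate 1 did not have. On chromosome II, 10 of the 13 genes from his-16 to his-42 had none (his-9 to his-14, his-25, his-26, his-43 and his-44), in windows that were each 0% to 17.6% unique. Of these, his-11 and his-12 had a signal of 14.5 in the other ranked list of the series, and his-26 had 9.32 in replicate 2. On chromosome IV the missing genes were his-29, his-30, his-33 and his-34 of 1 cluster, and his-45 and his-55. These last 2 were without one by a narrow margin of the window: the peaks past their 3′ ends described above have summits 545 bp from the 5′ end of his-45 and 527 bp from that of his-55, against the limit of 500 bp. In the lists of single libraries his-45 had 43.3 in replicate 1 and 25.1 in replicate 2 inside its window.

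The cluster of his-29 to his-34 spans 5297 bp. Its middle pair, his-31 (H4) and his-32 (H3), was 94.1% unique and had a peak with a signal of 35.4, 17.6 in replicate 1 and 24.6 in replicate 2. Its 2 outer pairs, for H2A and H2B, were under 10% unique in each gene's window and had none. Windows with a low share of unique sequence also held high signals: those of his-66, his-65, his-48 and his-58 were 24.6%, 20.9%, 26.4% and 21.7% unique, at 109.5, 109.5, 84.4 and 60.3. The peaks themselves can lie in more unique parts of a window: that of his-66 and his-65 was 58.7% unique and that of his-48 100%. The share was not measured for the peak of his-58.

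Only 2 genes without a ranked peak had windows that were 100% unique, and both are single genes on the X chromosome. They were his-24, the H1 gene, with no ranked peak in either library or in both together, and his-71, an H3.3 gene, with 12.3 in replicate 2, none in replicate 1 and 9.67 in the other ranked list of the series. The other H3.3 genes, all outside the divergent pairs, had ranked peaks. Those of his-69 and his-70, neighbours on chromosome III, reached 55.1 and 66.6, that of his-72 reached 48.7 and that of his-74 reached 43.6. In the libraries these were 27.2, 46.0, 29.5 and 26.2 in replicate 1 and 16.1, 22.4, 32.8 and 18.4 in replicate 2, in the same order. Their IDRs with both libraries together were 0.311, 0.11, 0.52 and 0.324. A ranked peak was present at 82.8% of all protein-coding genes. The histone-domain gene his-73 had 48.2 from both libraries and 27.3 in replicate 1, with no peak in replicate 2.

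Below the thresholded genes, the highest ranked signals were at his-61 and his-62, an H2A and H2B pair, which shared a peak of 66.6 (38.2 in replicate 1 and 26.5 in replicate 2). his-70 followed at 66.6, and the H3 and H4 pair his-63 and his-64 at 65.1 (36.5 and 33.4). The pair his-35 (H2A) and his-41 (H2B) had 61.6 (35.1 and 30.5), his-58 (H2B) 60.3 (30.9 and 29.2) and his-7 (H2A) 53.7 (25.6 and 30.4), in a peak it shares with its partner his-8 (H2B). The IDR of these peaks ran from 0.0145 at his-63 and his-64 to 0.542 at his-58. For his-70 the single libraries gave 46.0 in replicate 1 and 22.4 in replicate 2. How far this order would hold in further libraries was not tested.

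Genes related to histones by role gave a few higher values than the his- genes. They comprised 14 chaperones and assembly factors, 8 linker histones, 3 variant histones, 5 cell cycle regulators and 2 genes for histone mRNA control. Of 32 related genes, chosen by role, 4 had a conservative summit (against 2.81% of all protein-coding genes) and 6 a combined one (against 3.62%), and 29 had a ranked peak (90.6%, against 82.8%) with a median highest signal of 50.5, against 36.4. Among the 14 histone chaperones and assembly factors, unc-85, a homologue of the H3–H4 chaperone Asf1, reached 169.0 (100.5 in replicate 1 and 68.3 in replicate 2). nasp-2, named after the NASP family of histone chaperones, reached 159.6 (73.4 and 86.2), and both had summits in all 4 lists. chaf-2, a subunit of the chromatin assembly factor CAF-1, reached 99.9 (57.3 and 45.3).

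Each of the other roles had its highest value at 1 of the following genes. htz-1, which encodes the H2A variant H2A.Z, reached 101.4, with 70.3 in replicate 1 and 27.5 in replicate 2, and was in the combined list and that of replicate 1. hil-3, a linker histone gene, reached 63.96 (29.5 and 37.3) and was in the combined list alone. lin-35, the worm's Rb protein, which restrains cell cycle genes, reached 89.0 (40.0 and 47.7), in the conservative list and in that of replicate 2. Neither of the 2 genes for histone mRNA control had a thresholded summit, with 33.6 at cdl-1, the stem-loop binding protein, and 47.5 at csr-1, an Argonaute protein.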

How the data were processed

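ChIP-seq peaks from 2 biological replicates of 1 group were read from the deposited ce11 lists. The signal is the authors' value for each peak, on a scale that is not stated, and the score in the deposited lists is a transform of the IDR. The −log10 of the global IDR comes from the deposited ranked lists. Per the deposited README texts, all derive from alignments and a control file. Which aligner and peak caller were used is not given in the sources used here. The files hold no counts, so depth is unknown and no interval is given. A further 8 columns of signal per input in the ranked lists were not used.

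Genes came from Ensembl release 115 of WBcel235. Its symbols for the histone genes hold 50 distinct names, so the 72 RefSeq symbols with the same coordinates were used. Summits were set against windows with Python 3.11.15, numpy 2.4.6 and pandas 2.3.3, and the code was tested on simulated data. Sequence uniqueness counted every 50-base sequence of the 6 nuclear chromosomes on both strands. No test was made: the members are described beside all protein-coding genes. The members, lists and alternatives were chosen with earlier results of these data known, and the uniqueness measure, the 300 bp flank, the words and the stem-loop search were chosen after the data were seen. Genes named are those with a thresholded summit, the 10 with the highest ranked signal among the others, those without a ranked peak, those outside clusters, and related genes with a thresholded summit or the highest ranked signal of their role; cdl-1 was named beside csr-1 after its value was seen.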

Additional observations from a re-analysis of the deposited data

How the results depend on the processing

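No paired analysis was possible because there is 1 group and no test. The conservative counts depended on the list and the window. They were 6 genes, 4 summits, 3 pairs and 4 clusters, against 13, 10, 7 and 8 in the combined list, 20, 18, 10 and 9 at an IDR of 0.1 or lower, and 0 of each at 0.001 or lower. With 1 replicate's list alone they ran from 2 to 4 genes, 1 to 2 summits, 1 to 2 pairs and 1 to 2 clusters. In the window of 500 bp upstream and 100 bp downstream they were 1 gene, 1 summit, 0 pairs and 1 cluster, and the combined list had 3 genes. With 2000 and 1000 bp 5 pairs had a conservative summit. Taking only the nearest gene left 3 genes. The share of all protein-coding genes was not counted at the other IDR limits, in the wider window or for the nearest gene. The median ranked signal was 50.1 in the narrow window, 31.8 with absent peaks set to 0, and 27.1 to 33.1 with either library alone, whose signals are on their own lists' scale. An IDR limit of 0.01, counting any overlap and leaving out peaks at small noncoding RNA genes changed no conservative count. The 31 pairs were the same number at other distances, clusters numbered 13 at 25 kb, windows under 50% unique numbered 43 with 32 bases and 40 with 100, and summits past a 3′ end 4 within 200 bp and 5 within 500 bp. Depth is unknown, so a missing peak is not an absence of binding.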
